A study of Mus musculus with 20 samples.

Results

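CXCL12-abundant reticular (CAR) cells are stromal cells of the bone marrow, and the comparison described here is CAR cells labelled Ebf1 ko against CAR cells labelled wt. It rests on 6 of the series' 20 samples: 3 RNA libraries of CAR wt cells and 3 of CAR ko cells, chosen by their labels. The series has 12 RNA libraries, since the PaS cells, the Sca1-positive mesenchymal cells of the same marrow, give 3 wt and 3 ko libraries too, and 8 samples of chromatin accessibility that were not analysed here. The wt mice were Ebf1+/+;Prx1+/cre and the ko mice Ebf1fl/fl;Prx1+/cre, both on C57BL/6, so that both groups carry the Prx1-driven Cre recombinase and differ in the floxed Ebf1 alleles. Prx1-Cre is active in the mesenchyme of the limb buds, so recombination is restricted to cells of that origin and is not specific to CAR cells. The sort gate of the CAR cells was PDGFRα+Sca1- among CD45-CD31-Lin- marrow cells, and PaS cells were gated alike but Sca1+. The labels used here give no age, sex, pooling of animals or time of collection, so the p-values measure the spread between these libraries, which may be technical.

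Ebf1 is a transcription factor with a helix-loop-helix dimerization domain that is required for B cell development and is also made by marrow stroma and fat cells. CAR cells surround sinusoids, secrete Cxcl12 and stem cell factor, and provide the niche in which blood stem cells and B cell precursors are kept; they also hold precursors of fat and bone cells. The bone, cartilage and blood-cell genes form a separate set of 468 genes in the files and are given here only where they move with another result.

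The values are FPKM, that is, fragment counts divided by transcript length and by the mapped fragments of the library, and every difference is ko minus wt on the log2(FPKM + 1) scale, which understates the change of low genes. Sequencing depth is unknown. The defining markers of the labelled cell type were present: Cxcl12 lay at 12486 to 14684 FPKM, Adipoq at 1444 to 1904 and Lepr at 560 to 750 in the CAR libraries, whereas Ly6a, which encodes Sca1, lay at 4.03 to 12.3 against 1524 to 2176 in PaS cells. Markers of endothelium (Pecam1, Cdh5, Kdr, Tek and Emcn) lay at or under 3.48 FPKM, and Cd3e, Ncr1, Sox10 and Myh4 at or under 0.180. Blood-cell genes were present despite the CD45- gate. The 384 genes of these lists held 5.24 to 5.72% of the summed FPKM in the 3 wt libraries and 3.10 to 3.22% in the 3 ko libraries. Genes of bone-forming cells held 8.21 to 8.43% in wt and 10.9 to 12.05% in ko libraries. Every CAR library held transcripts of both sexes. Xist lay at 3.46 to 4.94 FPKM in wt and 6.68 to 7.54 in ko libraries, and the Y-linked Eif2s3y at 17.6 to 22.2 in wt and 10.04 to 11.5 in ko libraries. The groups did not overlap for either gene, so genotype and the mix of sexes in the libraries cannot be told apart. Col1a1 was listed at 0 in ko 2 and ko 3 and Col1a2 in ko 2, beside 4677 and 5144 FPKM in ko 1; these zeros were treated as failed estimates and left out.

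Across the 12088 tested genes, 815 (6.74%) were higher and 755 (6.25%) lower in ko at an adjusted p under 0.05. The change passed 2-fold for 73 genes higher and 160 lower, and the median over all genes was a log2 difference of 0.01. Outside the bone, cartilage and blood lists, 766 of 11718 genes were higher and 571 lower; within those lists 49 of 370 were higher and 184 lower. The share called in either direction rose with the level, from 8.91% of genes under 5 FPKM to 27.5% of genes at 50 FPKM or more, and the 3 wt and 3 ko libraries did not overlap for 30.7% of tested genes, so each list is given with its own count beside these shares. The count of higher genes was 487 without ko 2 and 484 without ko 3. For the 51 lists described, counts and medians stand in for a test of the list, and the lists were chosen with results of these data known. Of the tested genes, 117 reached 1 FPKM in libraries of one group only, so that the filter itself selects for a difference; 74 of them were called, 14 in the lists described. Counts in the text include members shared with the bone, cartilage and blood lists; the plot of the lists leaves them out.

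**Figure D1:**
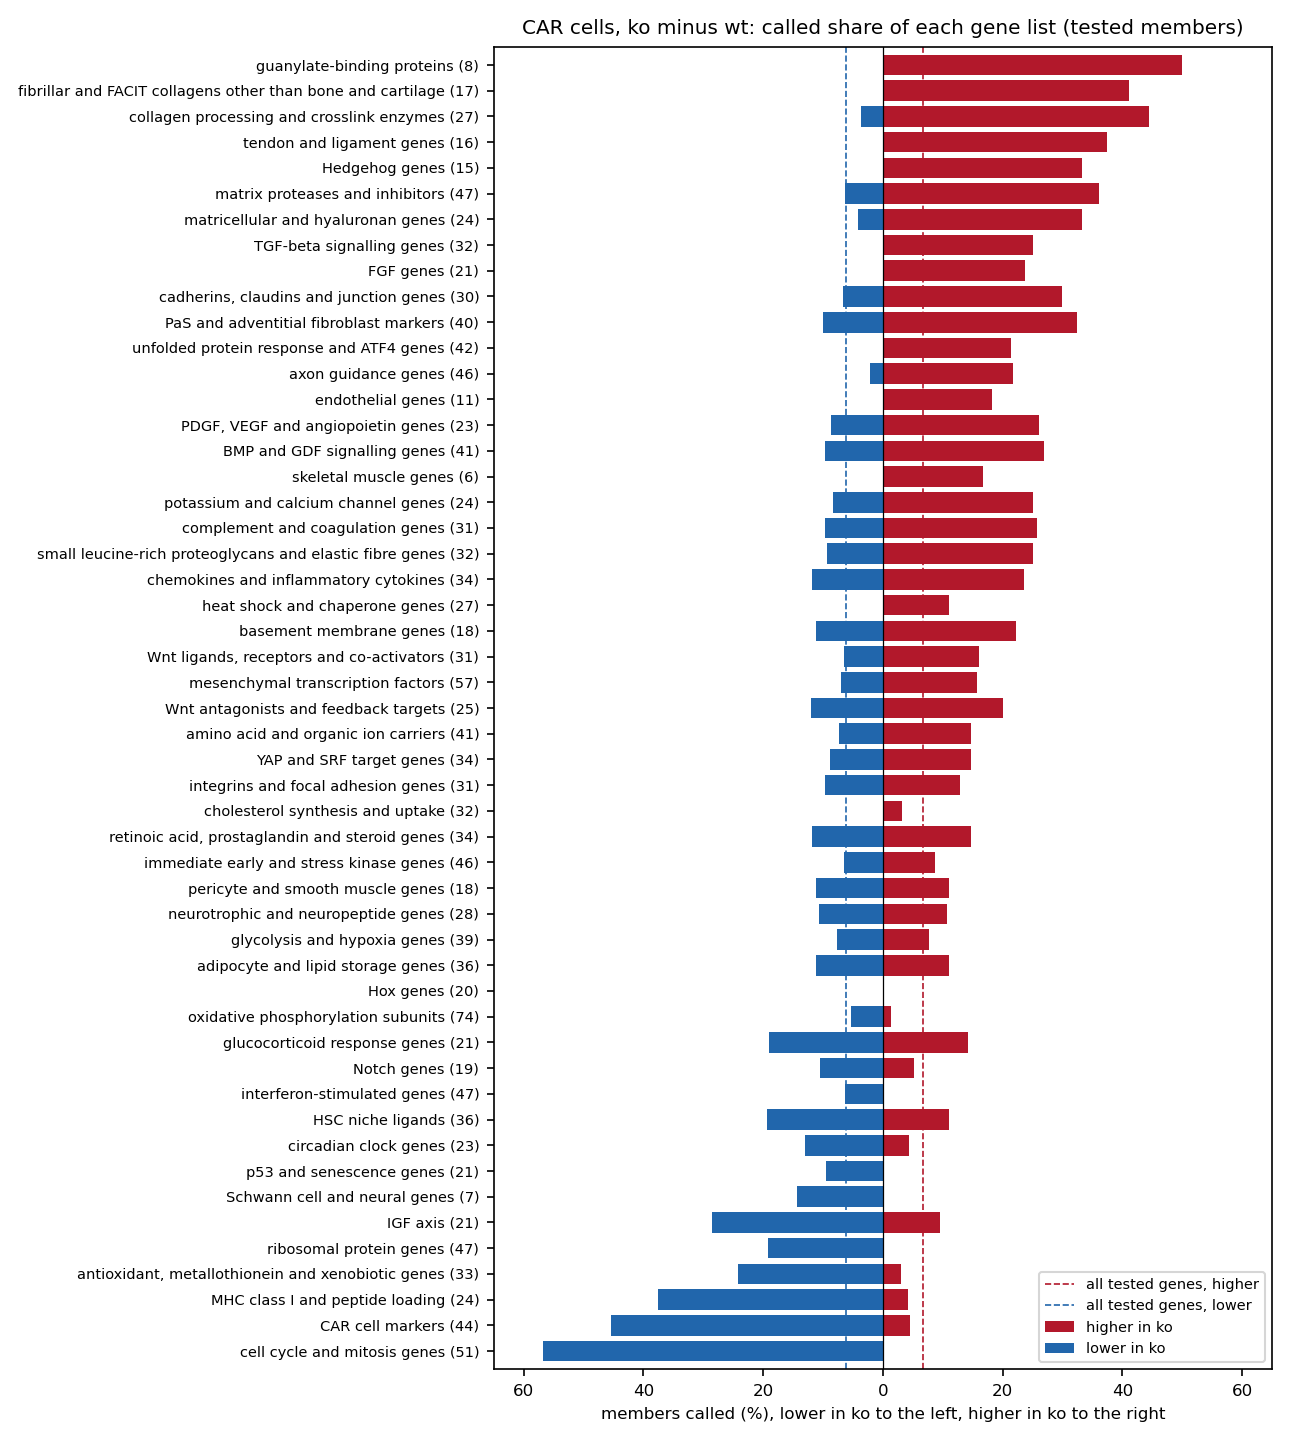
Share of the tested members of each gene list that were called higher (red, to the right) or lower (blue, to the left) in CAR ko than CAR wt libraries, in percent; members that also belong to the bone, cartilage or blood lists are left out, the number in brackets is the number of members tested, and the dashed lines mark the shares over all tested genes. Guanylate-binding proteins and collagen processing enzymes lie far to the right of the dashed line and cell cycle genes far to the left. The guanylate-binding share includes Gbp9, which was tested only through its ko values. Under a filter of 5 FPKM no guanylate-binding member was called.

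Ebf1 itself was not lower in the libraries labelled ko. It had 48.9, 48.5 and 46.8 FPKM in wt and 56, 56.7 and 59.8 FPKM in ko libraries (log2 difference 0.25, SE 0.07, adjusted p = 0.033). The groups did not overlap, and the exact two-sided permutation test over the 6 libraries gave p = 0.1, the smallest that 3 against 3 can give. The limma call was lost in 6 of 16 alternatives, among them leaving out any single library other than ko 1. A gene-level value would also count reads from exons that the deletion leaves in place. Exons were not read separately, so the Ebf1 value can neither check the labels nor show how far the deletion went. Ebf3, the relative that marks CAR cells, had 32, 43 and 33 FPKM in wt and 25.5, 29.9 and 24.7 FPKM in ko libraries (log2 difference -0.41, SE 0.12, adjusted p = 0.041). That call did not hold in 6 of 16 alternatives, among them leaving out wt 2, ko 1 or ko 3. Ebf2 (log2 difference -0.10, adjusted p = 0.75) and Prrx1, the gene whose enhancer drives the Cre (log2 difference 0.09, adjusted p = 0.58), did not pass the test, and Ebf4 lay at or under 1.29 FPKM.

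Binding of Ebf1 was not analysed here, so the promoters of changed genes were only read for the letters TCCC and GGGA with any 2 bases between them, the palindrome that Ebf proteins bind, which reads the same on both strands. RefSeq promoter windows (assembly GRCm38.p6, 250 bases before to 50 bases after a gene's start) matched 9155 of the 12088 tested genes. The palindrome stood in 1.06% of all 27025 genes with a window, in 1.48% of genes called higher (9 of 607), in 0.734% of genes called lower (4 of 545) and in 1.29% of genes not called (103 of 8003). These shares lie close to each other, and a match is a description of the sequence. Promoter windows of 4 genes that rose are shown because they hold the palindrome, printed here in capitals. The 32851 windows cover 27025 genes, so a gene can have several starts. A window can then lie inside a gene, and which start CAR cells use was not tested. In the Hdlbp window the palindrome begins 15 bases after the gene's start, and in the others it begins before that start. The 4 genes are Tspan2 and Lpar3, which have the largest differences among 10 called genes, and Hdlbp and Sdc4, the most abundant of the 10 after Sgk1. The 10 leave out the bone, cartilage and blood lists, predicted genes and the genes of a single chromosome, so the ranking holds only among the 10. They include Pola1, which fell, with a log2 difference of -0.59 (adjusted p = 0.037), and whose window is not printed.

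Tspan2, chr3:102734965-102735264, + strand: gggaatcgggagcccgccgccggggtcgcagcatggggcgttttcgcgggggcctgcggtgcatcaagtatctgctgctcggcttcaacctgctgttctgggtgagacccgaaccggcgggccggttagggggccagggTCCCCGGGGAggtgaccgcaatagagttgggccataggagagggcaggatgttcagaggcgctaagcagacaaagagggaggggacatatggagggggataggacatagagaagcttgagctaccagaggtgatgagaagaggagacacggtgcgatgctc
Lpar3, chr3:146220711-146221010, + strand: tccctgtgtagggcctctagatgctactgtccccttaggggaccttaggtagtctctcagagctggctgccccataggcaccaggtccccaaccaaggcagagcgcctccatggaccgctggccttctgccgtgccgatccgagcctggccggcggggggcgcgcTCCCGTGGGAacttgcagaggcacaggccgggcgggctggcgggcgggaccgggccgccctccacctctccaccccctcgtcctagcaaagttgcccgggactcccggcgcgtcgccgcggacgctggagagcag
Hdlbp, chr1:93478328-93478627, - strand: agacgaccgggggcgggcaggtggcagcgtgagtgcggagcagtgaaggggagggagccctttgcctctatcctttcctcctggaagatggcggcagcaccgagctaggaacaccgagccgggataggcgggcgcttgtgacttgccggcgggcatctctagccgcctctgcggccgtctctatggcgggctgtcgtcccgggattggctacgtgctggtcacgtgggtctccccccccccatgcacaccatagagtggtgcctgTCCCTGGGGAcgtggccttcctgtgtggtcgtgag
Sdc4, chr2:164443139-164443438, - strand: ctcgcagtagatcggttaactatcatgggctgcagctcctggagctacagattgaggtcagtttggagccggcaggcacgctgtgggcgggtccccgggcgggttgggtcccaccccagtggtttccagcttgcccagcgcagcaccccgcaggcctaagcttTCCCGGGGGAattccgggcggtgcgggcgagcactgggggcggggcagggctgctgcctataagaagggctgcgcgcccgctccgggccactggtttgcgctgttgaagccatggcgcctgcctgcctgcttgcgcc

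Tspan2, a tetraspanin, had 2.8, 1.84 and 3.49 FPKM in wt and 6.21, 6.11 and 6.45 FPKM in ko libraries (log2 difference 0.99, SE 0.18, adjusted p = 0.0032). Lpar3, a receptor for lysophosphatidic acid, had 4.61, 5.11 and 4.45 and 9.16, 9.08 and 10.3 FPKM (log2 difference 0.88, SE 0.13, adjusted p = 8.0e-04). Hdlbp, the RNA-binding protein vigilin, rose by 0.62 (adjusted p = 3.7e-04) and Sdc4, a heparan sulfate proteoglycan of the cell surface, by 0.45 (adjusted p = 0.0050). All 4 genes were higher in each ko library than in any wt library.

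Of 29 tested enzymes that modify and crosslink collagen, 13 rose and 1 fell, with a median log2 difference of 0.11; Bmp1 and Lox are counted here, and Lox is also a gene of the bone list. Prolyl 4-hydroxylases, which stabilize the collagen helix, rose in all 3 alpha subunits. P4ha1 had 45.9, 48.6 and 43.2 FPKM in wt and 68.6, 66.4 and 66.7 FPKM in ko libraries (log2 difference 0.54, SE 0.07, adjusted p = 4.5e-04), P4ha2 27.8, 27.2 and 26.5 and 43.6, 44.9 and 41.1 (log2 difference 0.65, SE 0.08, adjusted p = 2.2e-04). P4ha3, the least abundant, had 3.55, 3.58 and 4.31 and 7.71, 9.14 and 7.59 FPKM (log2 difference 0.93, SE 0.14, adjusted p = 0.0011). The shared beta subunit P4hb rose by 0.32 (adjusted p = 0.0021). In each of these genes the lowest ko library lay above the highest wt library.

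The lysyl hydroxylase Plod2, which prepares collagen for stable crosslinks, had 56.9, 57.8 and 56.9 FPKM in wt and 92, 103 and 98.5 FPKM in ko libraries (log2 difference 0.76, SE 0.07, adjusted p = 2.2e-05). Its partners in the endoplasmic reticulum moved the same way: Fkbp10, a prolyl isomerase, had 176, 169 and 178 and 229, 273 and 265 FPKM (log2 difference 0.55, SE 0.07, adjusted p = 3.9e-04). Serpinh1, the collagen chaperone Hsp47, had 1116, 1232 and 1182 and 1453, 1704 and 1677 FPKM (log2 difference 0.45, SE 0.07, adjusted p = 0.0013). Fkbp14 rose by 0.66 (adjusted p = 4.0e-04), P3h1, a prolyl 3-hydroxylase, by 0.52 (adjusted p = 0.0062) and Plod1 by 0.37 (adjusted p = 0.028; lost without wt 1, wt 3, ko 1 or ko 3). Among the lysyl oxidases, which crosslink the finished fibre, the members differed. Loxl4 had 7.0, 5.87 and 5.69 FPKM in wt and 10.3, 15.7 and 11.6 FPKM in ko libraries (log2 difference 0.90, SE 0.16, adjusted p = 0.0028), and Lox rose by 0.46 (adjusted p = 3.7e-04). Loxl1, which acts on elastic fibres, had 89.2, 91.2 and 85.4 and 69.6, 73.8 and 72.8 FPKM and was the member that fell (log2 difference -0.29, SE 0.07, adjusted p = 0.012). The groups did not overlap for any of the 3.

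Collagens are the substrates of these enzymes. Col3a1 and Col1a2, which encode abundant fibrillar chains, had no called difference: Col3a1 had 337, 328 and 350.3 FPKM in wt and 334, 346 and 308 FPKM in ko libraries (log2 difference -0.04, adjusted p = 0.74). Col1a2, over the 2 ko libraries with a value, had a log2 difference of 0.05 (adjusted p = 0.65). Col1a1 had a value in 1 ko library and was not compared. Of 17 tested collagens outside the bone and cartilage lists, 7 were higher and none was lower, with a median of 0.30. Col5a1, a regulator of fibril width, had 82.8, 80.1 and 74.9 and 104, 110.0 and 102 FPKM (log2 difference 0.41, SE 0.07, adjusted p = 0.0020). Col5a2 rose by 0.55 (adjusted p = 1.9e-04), Col13a1 by 0.68 (adjusted p = 0.0015), and Col22a1, a collagen of tissue junctions, by 0.73 (adjusted p = 1.0e-04).

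**Figure D2:**
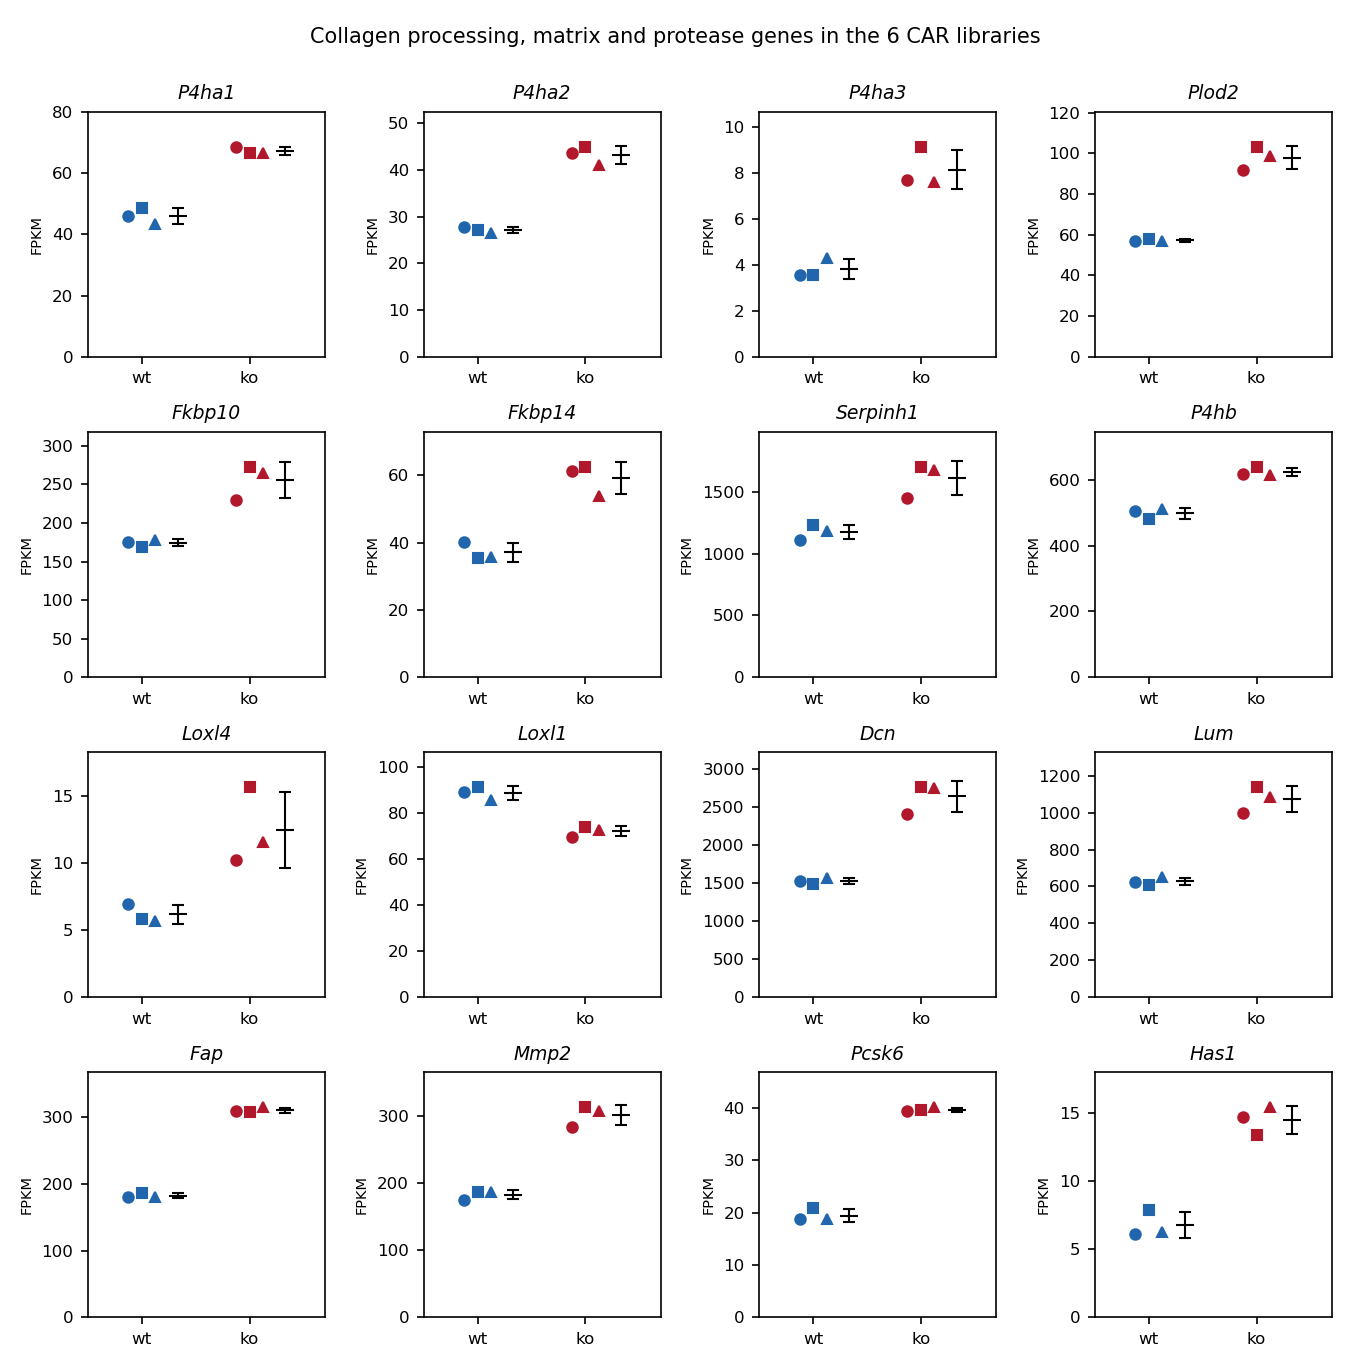
FPKM (y axes, from 0) in the 3 wt libraries (blue) and 3 ko libraries (red) of CAR cells for 16 genes of collagen processing, matrix and proteolysis; circles, squares and triangles are replicates 1, 2 and 3, and the bar beside each group is the mean with its SD. In every panel except that of Loxl1 the 3 ko libraries lie above the 3 wt libraries.

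Proteoglycans and matricellular proteins, which organize the fibres and signal to cells, rose more than they fell. Of 35 small leucine-rich proteoglycans and elastic fibre genes, 11 were higher and 3 lower (median 0.23); 3 of the tested members are cartilage or bone genes, and without them 8 of 32 were higher and 3 lower. Decorin (Dcn), which binds collagen and TGF-beta, had 1523, 1490.4 and 1562 FPKM in wt and 2402, 2758 and 2749.6 FPKM in ko libraries (log2 difference 0.79, SE 0.06, adjusted p = 1.1e-05). Lumican (Lum) had 627, 609 and 649 and 998, 1138 and 1086 FPKM (log2 difference 0.77, SE 0.06, adjusted p = 9.3e-06). Each ko library lay above each wt library, and ko 1 was the lowest ko library for both genes. Of 25 matricellular and hyaluronan genes, 9 were higher and 1 was lower (median 0.20). Thbs1, an activator of latent TGF-beta, rose by 0.91 (adjusted p = 8.8e-06), and Cthrc1, a secreted collagen triple helix protein, by 0.75 (adjusted p = 5.8e-05). Has1, a hyaluronan synthase, had 6.15, 7.89 and 6.31 and 14.7, 13.4 and 15.4 FPKM (log2 difference 1.0, SE 0.13, adjusted p = 3.1e-04), whereas Has2 had a log2 difference of -0.20 (adjusted p = 0.52). Fn1, fibronectin, had 58.2, 66.1 and 46.3 and 83.3, 118 and 107 FPKM (log2 difference 0.84, SE 0.14, adjusted p = 0.0018).

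Matrix proteases and their inhibitors gave the largest number of increases of any matrix list, with 17 of 47 higher and 3 lower (median 0.21); the count of higher members was 12 to 15 when any one library was left out. Prss35, a secreted serine protease-like protein, had 26.1, 27.1 and 28.2 FPKM in wt and 68.5, 92.8 and 84.5 FPKM in ko libraries (log2 difference 1.55, SE 0.10, adjusted p = 2.7e-06), the largest rise of the list. Fap, a surface protease of fibroblasts, had 179.8, 186 and 180.3 and 308, 307 and 314 FPKM (log2 difference 0.76, SE 0.05, adjusted p = 4.0e-06). Mmp2, a gelatinase, had 175, 186 and 187 and 284, 313 and 308 FPKM (log2 difference 0.72, SE 0.06, adjusted p = 1.7e-05). The proprotein convertase Pcsk6 had 18.7, 20.8 and 18.7 and 39.3, 39.5 and 40 FPKM (log2 difference 0.99, SE 0.08, adjusted p = 1.4e-05), with both groups tightly spaced. Mmp3 rose by 1.20 (adjusted p = 4.0e-05) and the inhibitor Timp1 by 0.49 (adjusted p = 0.0033), while Mmp14, the membrane activator of Mmp2, had a log2 difference of 0.05 (adjusted p = 0.67). Tendon and ligament genes were higher for 8 of 18 members and lower for none (median 0.36), 5 of them without ko 2; Fmod and Comp, which are cartilage genes as well, Kera (lost without ko 2 or ko 3) and Thbs4 were among them.

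Of 42 genes that the unfolded protein response controls, many of them in the secretory pathway, 9 (21.4%) were higher and none was lower (median 0.11); among all genes at 50 FPKM or more, 27.5% were called in either direction. Hspa5, the chaperone BiP, had 1033, 1061 and 1074 FPKM in wt and 1320.5, 1250.1 and 1274 FPKM in ko libraries (log2 difference 0.28, SE 0.05, adjusted p = 0.0046). Xbp1, a transcription factor of that response, had 119, 108 and 118 and 149, 147 and 156 FPKM (log2 difference 0.38, SE 0.06, adjusted p = 0.0022). Pdia3, Pdia4, Hsp90b1, Dnajb11 and Manf, all proteins of the endoplasmic reticulum, rose by 0.20 to 0.33 (Hsp90b1 not without any single library other than ko 3, and Manf not without wt 1, wt 3, ko 2 or ko 3), and the lipoprotein receptor Vldlr by 0.94 (adjusted p = 3.4e-05). Of 27 heat shock and chaperone genes, 3 rose, led by Cryab, a small heat shock protein, with 48.3, 44.7 and 50.6 and 86.2, 91.6 and 96.2 FPKM (log2 difference 0.92, SE 0.08, adjusted p = 1.2e-05). The bone list rose in the same libraries, as given above, and its part in the matrix and secretory results was not tested.

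Of 46 genes known from earlier descriptions of CAR cells, 20 fell and 2 rose, with a median of -0.20; the count of lower members was 12 without ko 3, 13 without ko 2 and 13 without wt 2. Wisp2, a secreted protein with a CCN fold, had 610.3, 605 and 622 FPKM in wt and 423, 408 and 420.2 FPKM in ko libraries (log2 difference -0.55, SE 0.05, adjusted p = 3.2e-05). Cbln1, a secreted synaptic organizer, had 20.7, 22.3 and 24.3 and 10.4, 9.95 and 11.8 FPKM (log2 difference -1.0, SE 0.11, adjusted p = 9.6e-05). Adipoq, the adipokine adiponectin, had 1775, 1904 and 1883 and 1444, 1463 and 1451 FPKM (log2 difference -0.35, SE 0.05, adjusted p = 0.0011). The spread within each group was small against the gap between them for all 3. Foxc1, a transcription factor needed for the CAR cell niche, had 125, 129 and 132 and 103, 102 and 98.8 FPKM (log2 difference -0.35, SE 0.06, adjusted p = 0.0028). Kitl, stem cell factor, fell, with a log2 difference of -0.29 (adjusted p = 0.012), and Cxcl14, a chemokine, with one of -0.47 (adjusted p = 4.0e-04). Other niche genes had no called difference: Cxcl12, Il7, Vcam1, Pparg and Lepr had log2 differences of 0.00, 0.13, -0.03, -0.04 and -0.21 (adjusted p of 0.99, 0.53, 0.82, 0.82 and 0.13). Under quantile normalization Cxcl12 had a log2 difference of -0.52 (adjusted p = 0.012), and without ko 1 Lepr had -0.30 (adjusted p = 0.0078).

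Some genes that mark PaS cells and adventitial fibroblasts were higher in CAR ko libraries: 14 of 43 rose and 6 fell (median 0.23). Without members shared with the bone and blood lists, 13 of 40 rose and 4 fell (median 0.28). Ly6a had 4.03, 4.38 and 5.58 FPKM in CAR wt and 6.67, 12.3 and 7.53 FPKM in CAR ko libraries (log2 difference 0.76, SE 0.20, adjusted p = 0.026), a call that did not hold without wt 1, wt 2 or ko 2. Gsn, the actin-severing protein gelsolin, rose by 0.56 (adjusted p = 3.8e-04), and Efemp1, an elastic fibre protein, by 0.49 (adjusted p = 6.1e-04). The defining PaS markers Pi16 and Dpp4 lay at or under 3.28 FPKM in every CAR library, and Cd34, which blood stem cells share, fell, with a log2 difference of -0.63 (adjusted p = 0.013), a call that did not hold without wt 3 or ko 3. Adipocyte genes gave no common direction, with 4 of 36 higher and 4 lower. Rbp4, the retinol carrier, had 28, 36.9 and 31.2 and 64.5, 64.4 and 90.1 FPKM (log2 difference 1.16, SE 0.13, adjusted p = 1.6e-04), and G0s2, an inhibitor of fat breakdown, 101, 113 and 122 and 77, 68.4 and 77.8 FPKM (log2 difference -0.58, SE 0.08, adjusted p = 6.7e-04). Cebpa, an adipogenic transcription factor, fell, with a log2 difference of -0.48 (adjusted p = 0.0042). Of 32 cholesterol genes only Msmo1, a sterol oxidase, passed the test, a call lost without any single library other than wt 1, and the 20 tested Hox genes gave no call.

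Several growth factor genes were higher. Pdgfc, a ligand of the PDGF alpha receptor, had 6.68, 6.34 and 6.75 FPKM in wt and 16.5, 16.1 and 20.3 FPKM in ko libraries (log2 difference 1.29, SE 0.12, adjusted p = 2.9e-05). Fgf18, a fibroblast growth factor, had 2.75, 3.77 and 3.43 and 8.15, 8.51 and 6.29 FPKM (log2 difference 1.0, SE 0.16, adjusted p = 0.0015). Inhba, the activin A subunit, had 6.35, 5.49 and 7.11 and 12.3, 11.1 and 10.1 FPKM (log2 difference 0.74, SE 0.13, adjusted p = 0.0033). In each case the ko libraries lay above all wt libraries, while Bmp6, a BMP ligand of CAR cells, fell from 188 ± 18 to 137 ± 10.4 FPKM (SD, n = 3; adjusted p = 0.0033). Of 43 BMP and GDF genes 12 were higher and 4 lower (median 0.13), and Bambi, a decoy receptor, rose by 0.63 (adjusted p = 3.6e-04). Of 33 TGF-beta genes 9 were higher and none lower, 5 without wt 1 or without ko 1; Itgb5, an integrin subunit that activates latent TGF-beta, rose by 0.49 (adjusted p = 2.2e-04) and the ligand Tgfb3 by 0.43 (adjusted p = 0.018; lost without wt 1, wt 3 or ko 1). FGF genes were higher for 5 of 22 and lower for none; 2 were higher without wt 3 or ko 3.

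Of 27 tested Wnt antagonists and feedback targets, 7 were higher and 3 lower, and 5 of 25 were higher once Frzb and Wif1, which are cartilage genes too, were set aside. Dkk1, which blocks the Lrp5 and Lrp6 co-receptors, had 5.72, 4.61 and 6.54 FPKM in wt and 13.9, 15.1 and 14.8 FPKM in ko libraries (log2 difference 1.25, SE 0.13, adjusted p = 8.8e-05). Sfrp5, a decoy that binds Wnt proteins, had 1.34, 1.67 and 2.21 and 0.194, 0.201 and 0.165 FPKM. It was tested only through its wt values, so no test is given, although it is among the 3 lower members. Wisp1, a Wnt-induced CCN protein, rose by 0.93 (adjusted p = 2.4e-05), and Lef1, a nuclear effector, fell, with a log2 difference of -0.72 (adjusted p = 0.014; lost without ko 3). Ctnnb1, beta-catenin, had 187, 169.6 and 164 and 250.4, 263 and 243 FPKM (log2 difference 0.54, SE 0.07, adjusted p = 2.5e-04).

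Hedgehog genes gave 5 increases and no decrease among 15 (median 0.26), and 2 increases without ko 2. The called members are receptors and binding proteins: Gas1, a co-receptor, had 113, 105 and 111 FPKM in wt and 188, 169.9 and 176 FPKM in ko libraries (log2 difference 0.70, SE 0.06, adjusted p = 2.8e-05). Hhip, a decoy for Hedgehog ligands, rose by 0.65 (adjusted p = 0.015), a call lost without wt 1, ko 1 or ko 2. Ptch1, a transcriptional target of the pathway, had a log2 difference of -0.22 (adjusted p = 0.50), and Gli1, another target, lay at or under 0.865 FPKM. In the IGF axis 6 of 21 genes were lower and 2 higher, and 1 was lower without ko 3. Igfbp3, an IGF-binding protein, had 269, 277 and 282 and 145, 117 and 131 FPKM (log2 difference -1.08, SE 0.08, adjusted p = 4.0e-06), and none of the alternatives ended that call.

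**Figure D3:**
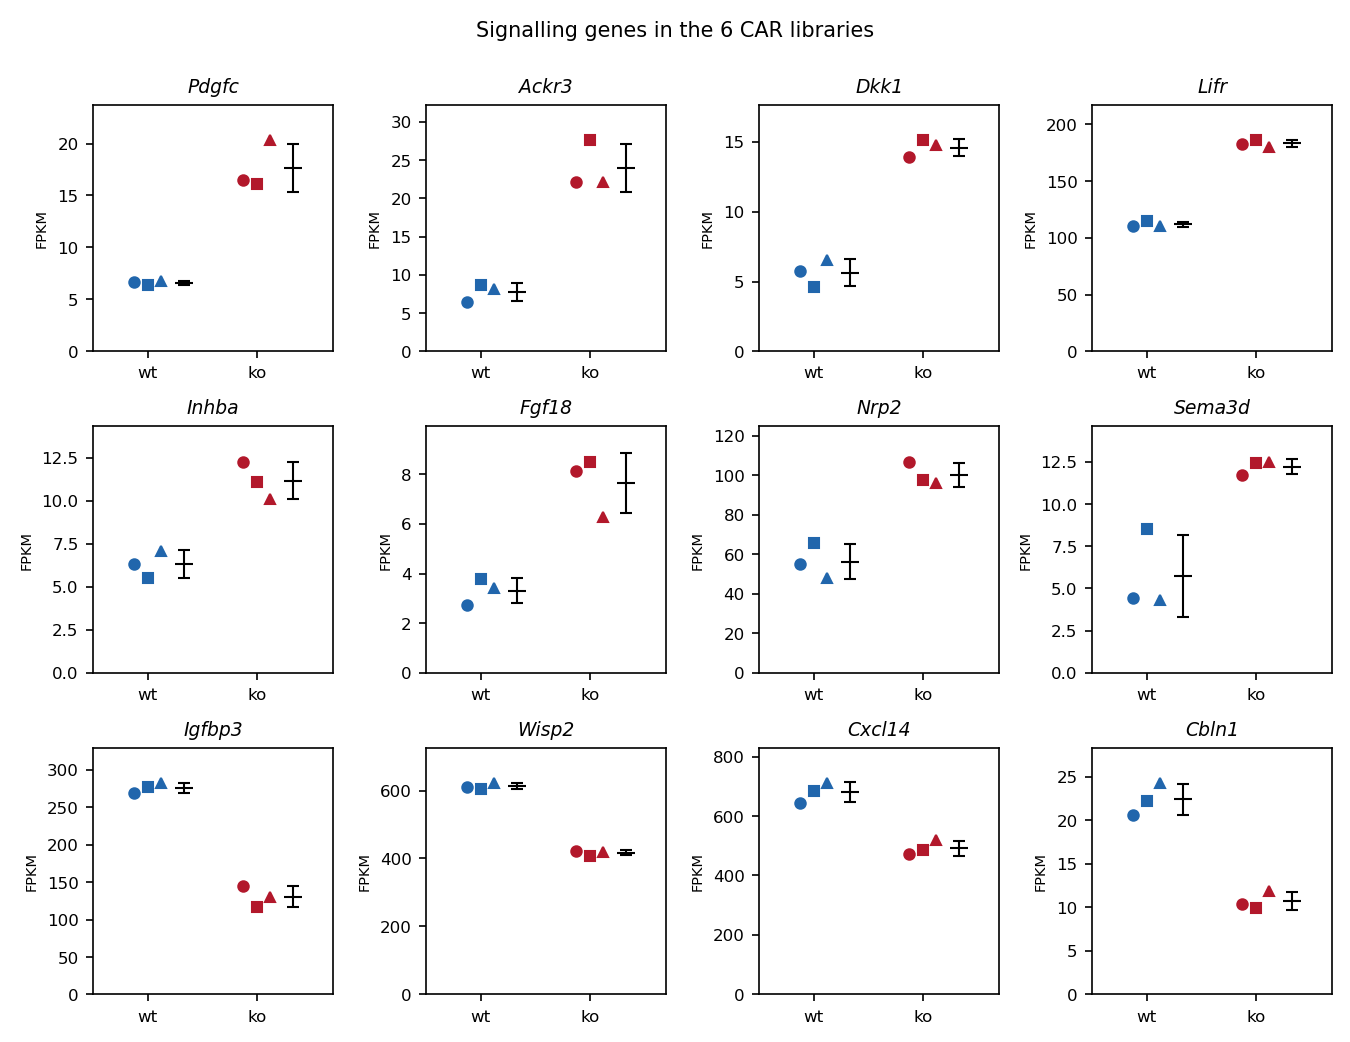
FPKM (y axes, from 0) of 12 secreted, receptor and guidance genes in the 3 wt (blue) and 3 ko (red) CAR libraries; symbols are replicates 1, 2 and 3 and the bars give mean and SD. The first 8 genes are higher in all ko libraries, and Igfbp3, Wisp2, Cxcl14 and Cbln1 are lower in all of them.

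Axon guidance genes, which also steer vessels and nerves in bone, were higher for 10 of 46 and lower for 1 (median 0.13); without ko 3 the higher count was 5. Nrp2, a receptor for semaphorins and VEGF, had 54.9, 65.9 and 48.1 FPKM in wt and 107, 97.5 and 96.2 FPKM in ko libraries (log2 difference 0.83, SE 0.10, adjusted p = 2.6e-04). Slit2, a repellent ligand, had 12.7, 13.5 and 11.7 and 18.4, 20.7 and 19.2 FPKM (log2 difference 0.59, SE 0.10, adjusted p = 0.0025). Sema3d, a semaphorin, had 4.41, 8.53 and 4.29 and 11.7, 12.4 and 12.5 FPKM (log2 difference 1.03, SE 0.20, adjusted p = 0.0055), with wt 2 the nearest to the ko group. Neo1, the netrin receptor neogenin, rose by 0.56 (adjusted p = 0.0029). Cell contact genes were higher for 9 of 30 and lower for 2 (median 0.22). The 9 include Cldn5, which was tested only through its ko values. Cadm1, an adhesion molecule, had 35.1, 33.9 and 35 and 54.7, 64.8 and 67.3 FPKM (log2 difference 0.82, SE 0.09, adjusted p = 8.5e-05). Gja1, the gap junction protein connexin 43 through which CAR cells are coupled, had 694, 694 and 705 and 971, 930.1 and 934 FPKM (log2 difference 0.44, SE 0.05, adjusted p = 1.9e-04). Potassium and calcium channel genes were higher for 8 of 26 and lower for 2 (median 0.31). Without members shared with the bone and blood lists, 6 of 24 were higher and 2 lower (median 0.22). Ano1, a calcium-activated chloride channel, had 8.98, 8.21 and 10.9 and 19.8, 20 and 19.2 FPKM (log2 difference 1.0, SE 0.12, adjusted p = 1.8e-04), and Kcnma1, a calcium-activated potassium channel, rose by 0.81 (adjusted p = 0.0030).

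Of 35 chemokine and inflammatory cytokine genes 8 were higher and 4 lower, and of 31 complement and coagulation genes 8 were higher and 3 lower. The scavenger receptor Ackr3, which takes up Cxcl12, had 6.49, 8.67 and 8.14 FPKM in wt and 22.1, 27.6 and 22.1 FPKM in ko libraries (log2 difference 1.51, SE 0.13, adjusted p = 1.8e-05). Lifr, the receptor of leukemia inhibitory factor, had 110.4, 115 and 111 and 183, 186 and 181 FPKM (log2 difference 0.71, SE 0.06, adjusted p = 1.1e-05). Both were higher in every ko library, as was Cd59a, a surface complement inhibitor (log2 difference 0.73, adjusted p = 2.8e-04). Of 8 tested guanylate-binding proteins, interferon-inducible GTPases, 4 were higher and none lower (median 0.39), although near-identical Gbp genes can share reads. Among the 4, Gbp9 was tested only through its ko values. Under a filter of 5 FPKM, 3 members were tested and none was called (median 0.097). Gbp4 had 0.777, 1.13 and 1.2 and 4.86, 6.69 and 4.98 FPKM (log2 difference 1.67, SE 0.17, adjusted p = 7.6e-05), and Gbp8, under 5 FPKM in every library, rose by 1.72 (adjusted p = 1.7e-04). Other interferon-stimulated genes gave no increase: of 47, none was higher and 3 were lower.

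Of 24 genes of MHC class I, which presents peptides to T cells, and of peptide loading, 9 were lower and 1, the disulfide isomerase Pdia3, was higher (median -0.20), with 7 to 10 lower when any one library was left out. B2m, the invariant light chain, had 6329, 6216 and 6451 FPKM in wt and 5176, 5086 and 4989 FPKM in ko libraries (log2 difference -0.32, SE 0.05, adjusted p = 0.0021). H2-K1 had 2128, 2121 and 2082 and 1691, 1614 and 1668 FPKM (log2 difference -0.35, SE 0.05, adjusted p = 9.3e-04). H2-D1 fell, with a log2 difference of -0.34 (adjusted p = 0.0021), a call that quantile normalization ended (adjusted p = 0.12). For these 3 genes each ko library was under each wt library. Psmb9 and Psmb8, immunoproteasome subunits, fell with log2 differences of -0.47 and -0.33. Blood cells express these genes too, and the blood-cell share fell in the same libraries; its part in these differences was not tested. In bulk samples fewer cells of a type and less RNA per cell cannot be told apart.

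A clock output gene, Dbp, had the largest decrease among the named genes. Dbp, a transcription factor whose level cycles over the day, had 13.4, 14.3 and 13.9 FPKM in wt and 2.8, 1.76 and 1.91 FPKM in ko libraries (log2 difference -2.25, SE 0.15, adjusted p = 2.8e-06). Nr1d1, the repressor Rev-erb alpha, had 13.5, 16.6 and 12.6 and 4.78, 4.07 and 4.56 FPKM (log2 difference -1.47, SE 0.13, adjusted p = 2.6e-05). Nr1d2 had 10.9, 9.5 and 13.2 and 8.79, 7.66 and 6.83 FPKM (log2 difference -0.47, SE 0.14, adjusted p = 0.048), a call lost without wt 1, wt 3, ko 2 or ko 3. All 3 were lower in each ko library than in any wt library. Bhlhe40, a repressor of clock genes, had 69.9, 70.9 and 77.5 and 99.1, 113 and 107 FPKM (log2 difference 0.54, SE 0.07, adjusted p = 5.2e-04). The remaining 19 of 23 clock genes were not called: Arntl had a log2 difference of 0.10 (adjusted p = 0.66), Per1 -0.10 (adjusted p = 0.80), Per2 -0.25 (adjusted p = 0.41), Cry1 0.34 (adjusted p = 0.070) and Tef -0.32 (adjusted p = 0.058). Dbp and Nr1d1 were lower in PaS ko libraries as well, with log2 differences of -1.77 and -1.51, and the difference between the populations was not called (adjusted p = 0.20 and 0.95). The time of day of collection is not in the labels used here, so genotype and collection time cannot be told apart.

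Glucocorticoid-responsive genes were mixed, with 3 of 22 higher and 5 lower. Fkbp5, a co-chaperone induced by the receptor, fell, with a log2 difference of -0.58 (adjusted p = 0.013; lost without ko 3), Mt1, a metallothionein, fell with one of -0.35 (adjusted p = 0.0033), and Pdk4, a kinase that limits glucose oxidation, rose by 0.56 (adjusted p = 4.9e-04). Immediate early genes were higher for 4 of 46 and lower for 3; Atf3 rose by 0.55 (adjusted p = 3.1e-04) and Fosb fell, with a log2 difference of -0.33 (adjusted p = 0.014). Antioxidant and detoxification genes were lower for 8 of 33 and higher for 1 (median -0.17), and 4 were lower without wt 2 or ko 2. Gpx1, a glutathione peroxidase, had 936, 913 and 947 FPKM in wt and 579, 686 and 699 FPKM in ko libraries (log2 difference -0.51, SE 0.07, adjusted p = 5.9e-04). Sod3, the extracellular superoxide dismutase, was the exception, with 82.4, 72.8 and 78.1 and 152, 163 and 155 FPKM (log2 difference 1.0, SE 0.07, adjusted p = 2.9e-06). Of 74 subunits of oxidative phosphorylation 4 were lower and 1 higher, and of 39 glycolysis and hypoxia genes 3 were higher and 3 lower. These shares of calls were close to or under those over all genes. The oxidative phosphorylation list had a median of -0.10, and 9 of its 74 members lay above 0. Its summed share of FPKM ran from 2.79 to 2.99% in wt and 2.36 to 2.77% in ko libraries.

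**Figure D4:**
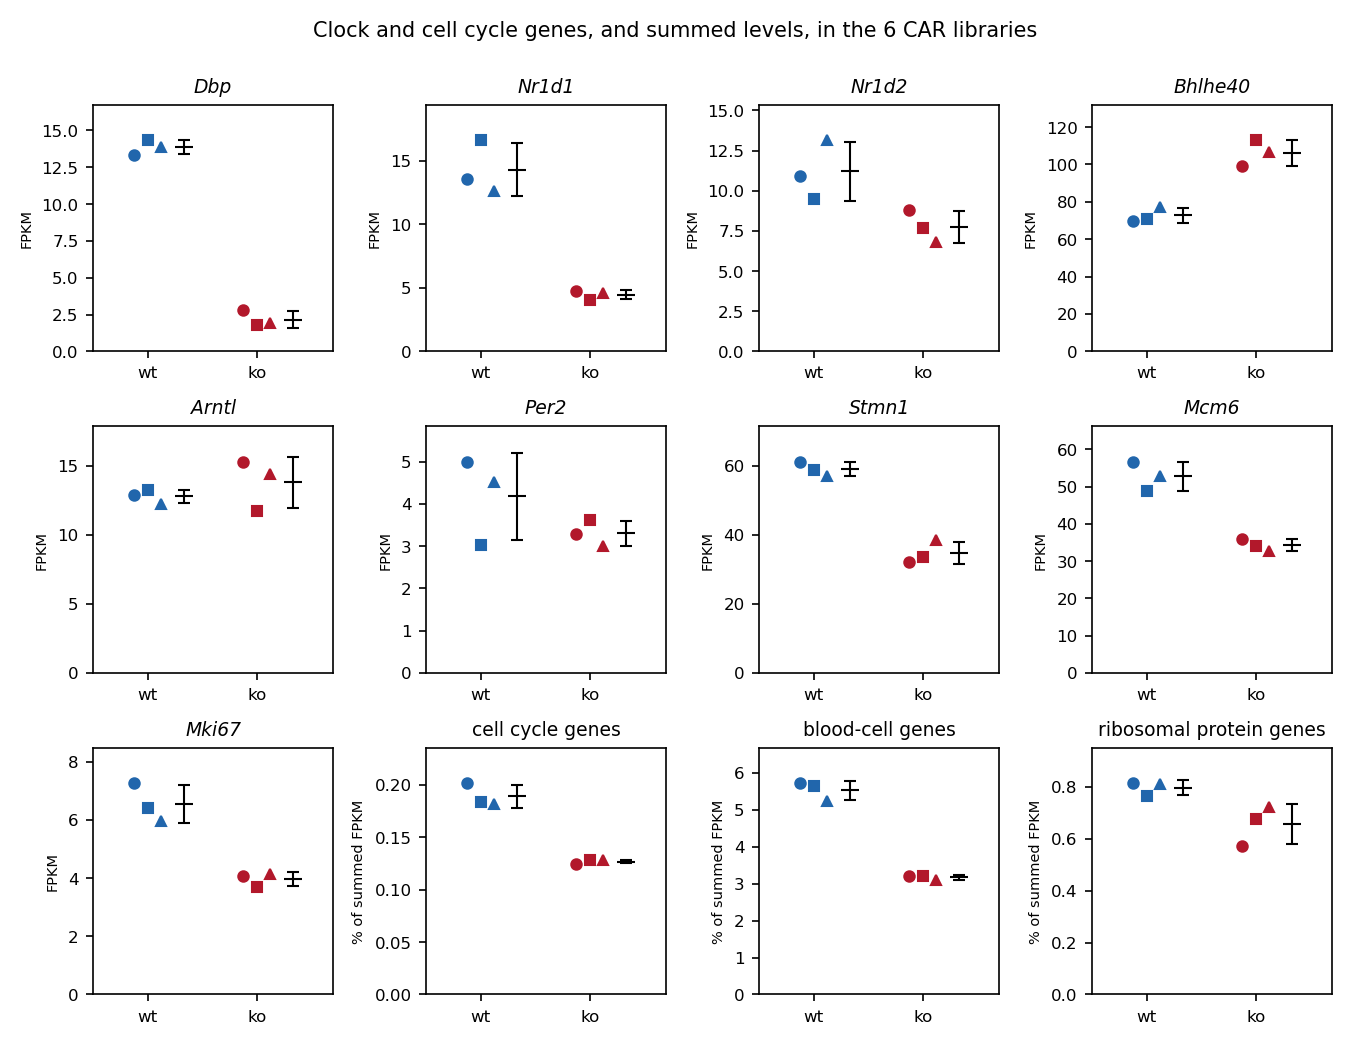
FPKM (y axes, from 0) of 6 clock genes and 3 proliferation genes, and the summed level of 3 gene lists in percent of all FPKM, in the 3 wt (blue) and 3 ko (red) CAR libraries; symbols are replicates 1, 2 and 3 and the bars give mean and SD. Dbp and Nr1d1 fall in every ko library, Arntl does not separate, and cell cycle and blood-cell sums are both lower in all ko libraries.

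Of the lists described, the genes of proliferation had the largest share of decreases. Of 51 genes of replication and mitosis 29 were lower and none higher, with a median of -0.50, and 20 to 27 were lower when any one library was left out. Stmn1, a microtubule regulator, had 61.2, 58.8 and 57.2 FPKM in wt and 32.2, 33.5 and 38.4 FPKM in ko libraries (log2 difference -0.75, SE 0.08, adjusted p = 1.2e-04). Mcm6, a subunit of the replicative helicase, had 56.7, 48.9 and 52.9 and 36.1, 34.1 and 32.7 FPKM (log2 difference -0.61, SE 0.08, adjusted p = 4.8e-04). Mki67, the proliferation antigen, had 7.26, 6.41 and 5.96 and 4.09, 3.71 and 4.14 FPKM (log2 difference -0.60, SE 0.14, adjusted p = 0.014), a call lost without wt 1 or ko 2. Together the 51 genes held 0.182 to 0.202% of summed FPKM in wt and 0.125 to 0.128% in ko libraries. The blood-cell share fell in the same libraries, and within it the neutrophil precursor genes Elane (432 to 560 against 140 to 164 FPKM) and Mpo (448 to 586 against 142 to 177 FPKM); their part in the proliferation result was not tested. Ribosomal protein genes were lower for 9 of 47 and higher for none (median -0.19), and their summed share ran from 0.764 to 0.814% in wt and 0.572 to 0.724% in ko libraries. That count was 2 without wt 3, 3 without wt 1, 4 without ko 1 and 5 without ko 2.

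Of 13 tested endothelial genes, 2, Cldn5 and Plvap, were higher and 1, Cd34, was lower. Cldn5, a tight junction protein of endothelium, had 0.306, 0.126 and 0 FPKM in wt and 2.4, 2.24 and 3.96 FPKM in ko libraries. It was tested only through its ko values, so its place in the count follows in part from the filter and no test is given. Plvap, another endothelial gene, rose by 0.81 (adjusted p = 0.0078), while Pecam1, Cdh5 and Kdr lay at or under 2.05 FPKM in every CAR library. Pericyte and smooth muscle genes were higher for 2 of 18 and lower for 2; Abcc9, a potassium channel regulator of pericytes, had 7.97, 8.76 and 8.76 and 4.27, 4.79 and 4.38 FPKM (log2 difference -0.79, SE 0.13, adjusted p = 0.0016). Acta1, skeletal actin, rose by 1.13 (adjusted p = 0.0060) from 0.685 ± 0.44 to 2.65 ± 0.638 FPKM (SD, n = 3), and the muscle genes Ckm and Myh4 lay at or under 0.540 FPKM.

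Outside the bone, cartilage and blood lists, the 15 largest rises among genes with a mean of 5 FPKM or more in the higher group and no overlap between groups included the following genes. Slurp1, a secreted protein of the Ly6 family, had 1.5, 2.3 and 0.682 FPKM in wt and 4.96, 7.35 and 5.94 FPKM in ko libraries (log2 difference 1.55, SE 0.23, adjusted p = 0.0011). Entpd3, an enzyme that breaks down extracellular ATP, had 21.4, 16.6 and 15.5 and 42.5, 54.7 and 49 FPKM (log2 difference 1.41, SE 0.13, adjusted p = 2.1e-05). Lipc, hepatic lipase, had 19.1, 19.8 and 14.6 and 40, 45.8 and 46.1 FPKM (log2 difference 1.26, SE 0.12, adjusted p = 2.7e-05). Anxa8, an annexin, and Mfi2, the iron-binding melanotransferrin, rose by 1.25 and 1.25 with tightly spaced libraries (adjusted p = 6.1e-06 and 5.8e-06). Casr, the calcium-sensing receptor, and Egfl6, a basement membrane protein, rose by 1.39 and 1.27 from under 3 FPKM. Uts2, the peptide urotensin 2, lay under the limit of 5 FPKM and is not among these 15. It had a value of 0 in each of the wt libraries and 1.52 to 3.85 FPKM in ko libraries. It was tested only through its ko values, so no test and no fold are given.

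By the same limits, the largest decreases were those of Dbp, Tm6sf1, Ly6d, Crabp1 and Hcst. Ly6d, a surface protein of B cell precursors among other cells, had 34.7, 39.8 and 32.8 FPKM in wt and 11.4, 14.6 and 9.97 FPKM in ko libraries (log2 difference -1.51, SE 0.13, adjusted p = 1.8e-05). Crabp1, a retinoic acid-binding protein, had 6.75, 11 and 9.48 and 1.91, 2.96 and 2.75 FPKM (log2 difference -1.5, SE 0.19, adjusted p = 2.9e-04). Spint2, a protease inhibitor, had 7.79, 8.0 and 11.1 and 3.5, 1.92 and 3.3 FPKM (log2 difference -1.36, SE 0.19, adjusted p = 6.9e-04). Several others are known from leukocytes, among them Hcst, Samsn1, Napsa, Myo1f, Igsf6, Itgb7, Rgs18 and Cfp, and fell with log2 differences of -1.49 to -1.32; they are in none of the blood lists, and the part of the lower blood-cell share in them was not tested.

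The genotype contrast in PaS cells, in the fit of all 12 RNA libraries, called 882 genes (7.30%). In that fit the CAR contrast called 1622 genes. The genes were filtered on CAR libraries, so genes made only in PaS cells were not tested. The difference between the CAR and PaS effects was called for 838 of 12088 genes (6.93%). The largest difference among the named genes was in Pcsk6, which rose in CAR cells and had 137, 136 and 133 FPKM in PaS wt and 50.9, 59.2 and 52.6 FPKM in PaS ko libraries (difference of effects 2.30, SE 0.10, adjusted p = 1.7e-09). Ackr3 (difference of effects 1.89, SE 0.14, adjusted p = 2.0e-07) and Has1 (difference of effects 1.85, SE 0.13, adjusted p = 1.1e-07) also rose in CAR and fell in PaS cells. Postn, a matricellular protein that belongs to the bone list too, rose by 1.36 in CAR cells against -0.07 in PaS cells (difference of effects 1.43, SE 0.07, adjusted p = 5.3e-09). Fap and Mmp2 had PaS differences of 0.03 and 0.03, and the difference from CAR cells was called for both (adjusted p = 1.6e-04 and 2.7e-05). Proliferation genes differed as well: Stmn1 had 0.27 in PaS cells (difference of effects -1.02, SE 0.12, adjusted p = 4.6e-05) and Mki67 0.60 (difference of effects -1.20, SE 0.19, adjusted p = 7.1e-04). The difference between the populations was not called for Prss35 (difference of effects 0.04, SE 0.20, adjusted p = 0.95), Plod2 (difference of effects -0.00, SE 0.11, adjusted p = 0.99), Slurp1 (difference of effects 0.05, SE 0.28, adjusted p = 0.95) or Samsn1 (difference of effects -0.25, SE 0.14, adjusted p = 0.37).

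**Figure D5:**
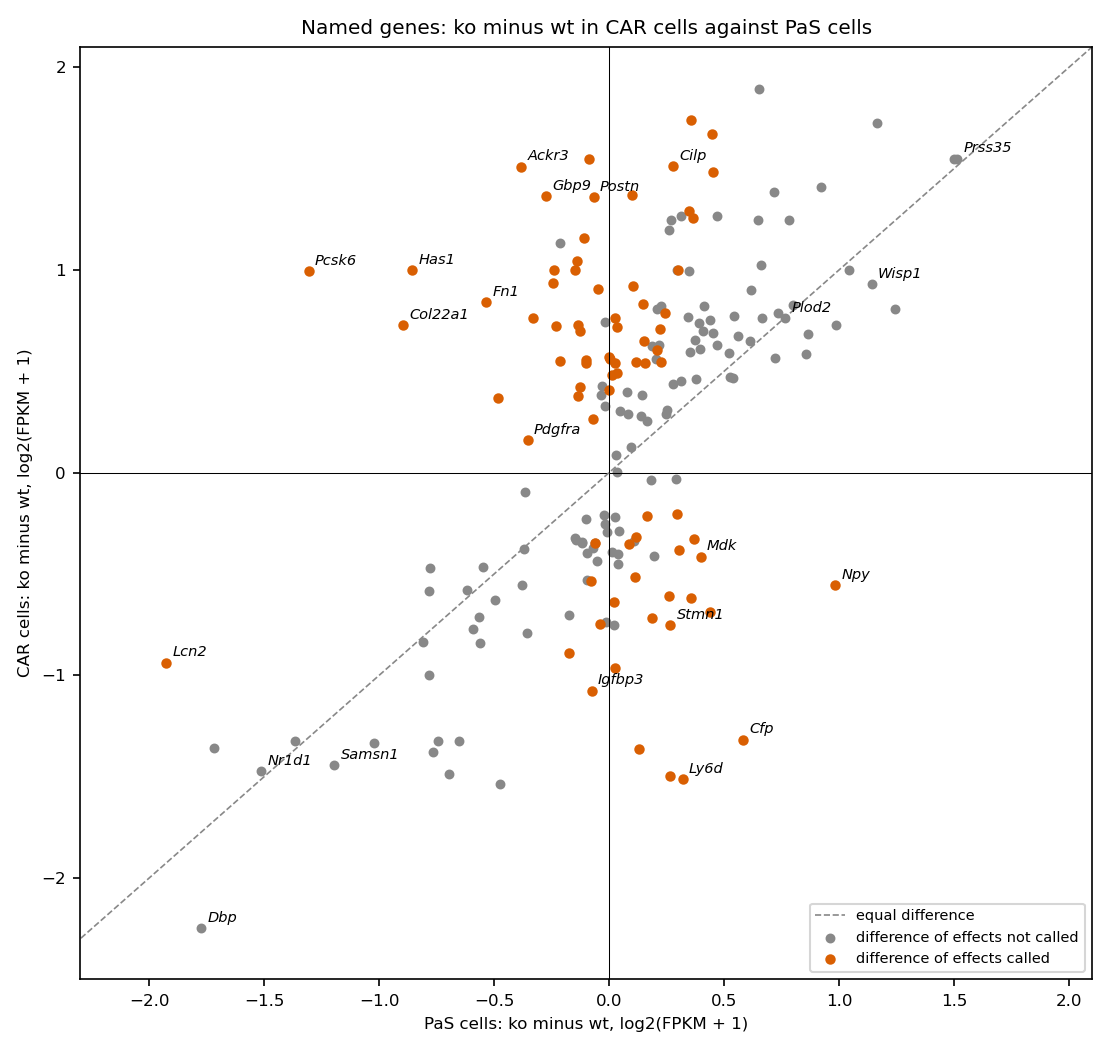
Ko minus wt on the log2(FPKM + 1) scale in CAR cells (y axis) against PaS cells (x axis) for the 194 named genes; orange points are the 77 whose difference of effects was called and grey points the 117 others, and the dashed line marks equal differences. Pcsk6, Ackr3, Has1, Col22a1 and Fn1 lie at upper left, higher in CAR ko and lower in PaS ko, and Dbp, Nr1d1 and Samsn1 lie near the line.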

How the data were processed

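RNA of sorted CAR and PaS cells was extracted with a micro column kit, enriched with oligo dT beads and made into libraries by the SMART-Seq v4 method, as stated per the labels' protocols. TopHat2 2.0.14, Cufflinks 2.2.1, Cuffnorm 2.2.1 and the genome build mm10 are named in the submitters' processing notes, with no order of steps. The deposited values are FPKM per gene symbol, with 1 table per library; the unit is inferred from the named tools and from the column layout per the file headers, which do not state it. The labels do not say that counting used strand, so overlapping and antisense genes cannot be told apart, and near-identical genes (Gbp, H2, hemoglobins) can share reads. No counts are given, so depth is unknown.

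The test covered the 12088 genes that reached 1 FPKM in 3 or more of the 6 CAR libraries. Values were log2(FPKM + 1), with a pseudocount of 1, fitted with limma 3.58.1 in R 4.3.3 (eBayes with a trend; 4 residual and 7.70 prior degrees of freedom), two-sided, Benjamini-Hochberg adjusted over all tested genes, called under 0.05. The difference between CAR and PaS effects came from a 4-group fit of all 12 RNA libraries (8 residual and 7.95 prior degrees of freedom). A 0 was set to missing where a replicate of it reached 100 FPKM. No replicate was left out of the reported fit. The test was tried on simulated data. Alternatives were another pseudocount, filter, scaling, fit, weighting or replicate block, and leaving out each library.

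The members, gene lists and tests were chosen with earlier results of these data known. The rule for named genes took the 4 Ebf genes, Prrx1, the 15 largest called rises and 15 largest called falls at 5 FPKM or more outside the bone, cartilage and blood lists, up to 4 called members per list, and 9 niche genes. Other members of lists, other clock genes and the genes with printed promoters were chosen after their values were seen; the text leaves out some genes that the rule names. Figures were drawn with matplotlib 3.10.9. Chromatin accessibility samples were not analysed here.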

Additional observations from a re-analysis of the deposited data

Results flagged for a closer look

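For 77 of the 194 named genes, the ko minus wt difference in CAR cells was not the same as in PaS cells by the limma test of that difference (adjusted p under 0.05). Of the 194 genes, 186 were called in CAR cells and most were chosen for that, so the choice raises this count and it is not set against the share over all genes. The values are CAR minus PaS differences of ko minus wt on the log2(FPKM + 1) scale, and no explanation was tested.

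Matrix, protease and surface genes had a higher ko minus wt difference in CAR than in PaS cells: Pcsk6 (2.302), Has1 (1.85), Col22a1 (1.62), Postn (1.43), Fn1 (1.37) and Cilp (1.24). Further matrix genes had Thbs1 (0.96), Fap (0.74), Mmp2 (0.69), Comp (0.57), Bmp1 (0.55), Dcn (0.54), Smoc2 (0.47), Col5a1 (0.41), Sparc (0.400) and Col5a2 (0.32). Collagen enzymes had P4ha2 (0.497), Fkbp10 (0.43) and P4ha1 (0.38). Receptors and ligands had Ackr3 (1.89), Hhipl2 (1.64), Fgf18 (1.24), Ackr2 (1.148), Pdgfc (0.94), Cdon (0.83), Nrp2 (0.68), Lgr4 (0.66), Neo1 (0.56), Pdgfra (0.52), Ctnnb1 (0.52), Lifr (0.49) and Itgb5 (0.46). Transcription factors had Creb5 (1.18), Osr2 (0.95), Atf3 (0.77), Bhlhe40 (0.64) and Klf6 (0.34).

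Other genes with a positive difference were Gbp9 (1.64), Gbp4 (1.23), Cldn5 (1.39), Slc9a2 (1.27), Rbp4 (1.26), Vldlr (1.18), Ly6a (1.095) and Sbsn (1.03). To these belong Anxa8 (0.89), Hspb8 (0.86), Msmo1 (0.85), Cryab (0.81), Sod3 (0.702) and Slc38a2 (0.51). Lcn2, at 0.99, fell in both populations and fell further in PaS cells. Gbp9 and Cldn5 were tested in CAR cells only through their ko values.

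The ko minus wt difference was lower in CAR than in PaS cells for the proliferation genes Stmn1 (-1.02), Mcm6 (-0.87), Cenpa (-0.71), Lmnb1 (-0.71) and Mcm5 (-0.66). Genes of antigen presentation had B2m (-0.43), H2-Q7 (-0.45) and H2-K1 (-0.29). Secreted and signalling genes had Cfp (-1.902), Npy (-1.54), Igfbp3 (-1.001), Mdk (-0.81), Igfbp7 (-0.498), Adipoq (-0.44) and Lef1 (-0.903). The remaining genes were Ly6d (-1.83), Crabp1 (-1.76), Spint2 (-1.49), Ncmap (-1.13), Ifi27l2a (-0.99) and Aldh3a1 (-0.98) and Cdkn1c (-0.697), Myl9 (-0.69), Gpx1 (-0.63) and Cox6c (-0.38).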

How the results depend on the processing

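The limma calls were recomputed under 16 alternatives. Without a filter on low values 506 genes were higher and 422 lower of 17674 tested, since more genes entered the adjustment. Among the genes described in the Results section, those then not called included Acta1, B2m, Cd34, Ebf3, Fkbp5, Fn1, Fosb, Frzb, Hcst, Hsp90b1, Igsf6, Kera, Ly6a, Manf, Msmo1, Nr1d2, P3h1, Plod1, Sema3d, Sgk1, Tgfb3 and Timp1. Of the genes given only for their CAR minus PaS difference, Ifi27l2a, Ncmap and Cox6c were among those then not called. Leaving out each library in turn gave 484 to 688 genes higher and 538 to 644 lower, with the fewest higher genes without ko 3; fewer samples entered each of these fits, and a group of 2 was kept. In the remaining alternatives (quantile or median-ratio scaling, a filter of 5 FPKM, pseudocounts of 0.1 or 5, all 12 libraries, library weights, zeros kept) the counts were within 1.5 times of those reported. Over all 16 alternatives 46.3 to 54.5% of calls were higher. The count of CAR minus PaS differences ran from 637 to 746 without single libraries and from 778 to 911 otherwise. Without the hemoglobin genes the blood-cell share was 4.65% in wt and 2.68% in ko libraries (means of 3). Of 186 called named genes, 133 were called under every alternative. Cxcl12 changed sign under quantile normalization (-0.52), library weights (-0.0062) and without single libraries (-0.072 to 0.045, below 0 without wt 1, wt 2 or ko 1), Il7 without single libraries (-0.0012 to 0.20, below 0 without wt 3), Pparg (-0.073 to 0.0014, above 0 without ko 2) and Vcam1 (-0.092 to 0.0045, above 0 without ko 3); the cause was not tested. With the replicate number as a block 817 genes were higher and 821 lower. The deviations of same-numbered wt and ko libraries from their group means correlated at 0.13, 0.03 and 0.09 across genes. Pairs with different numbers correlated at -0.15 to 0.06, and wt 2 did not correlate best with its own number. Whether same-numbered libraries were prepared together cannot be told from these values.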
